A study of Mus musculus with 52 samples.

Results

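In fibroblasts some promoters and CpG-rich sites carry both H3K4me3 and H3K27me3. The sites described here are the 611 H3K4me3 peaks of Mbd3+/+ mouse embryonic fibroblasts (MEF) that overlapped an H3K27me3 peak of the same cells by at least 1 bp and no H3K27me3 peak of either induced pluripotent stem (iPS) cell list. The +/+ MEF H3K4me3 list held 17023 peaks, of which 1450 (8.52%) overlapped H3K27me3. The 611 sites were 42.1% of these bivalent peaks and 3.59% of the whole list. The other 839 bivalent peaks overlapped H3K27me3 in at least 1 iPS list and serve below as the comparison ("sites that kept H3K27me3"). Of these 839, 475 overlapped it in both iPS lists, 216 in +/+ alone and 148 in flox/- alone. Of all 17023 peaks, 10.7% overlapped H3K27me3 in +/+ iPS and 7.72% in flox/- iPS cells. The H3K4me3 and H3K27me3 calls of +/+ MEF and the H3K27me3 calls of both iPS lists chose the sites, so those values are given as a description.

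H3K4me3 is laid down at active and CpG-rich promoters, and H3K27me3 is laid down by the Polycomb repressive complex PRC2. Sites with both marks are called bivalent and are known from developmental genes that are silent or weakly expressed and held ready for either state. Loss of H3K27me3 can leave H3K4me3 alone, or H3K4me3 with H3K27ac, the acetyl mark of active promoters and enhancers that occupies the same lysine as H3K27me3. Mbd3 and Mi2B (Chd4) are subunits of the NuRD complex, which joins nucleosome remodelling with histone deacetylation.

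The study followed reprogramming by ChIP-seq in MEF before induction, cells 4 and 8 days after doxycycline (2 µg/ml) switched on transgenic Oct4, Sox2, Klf4 and c-Myc, and iPS cells, each as Mbd3+/+ and as Mbd3flox/-, in which 1 allele is deleted and the other carries loxP sites. Mbd3-/- embryonic stem (ES) cells were a further group, without reprogramming. MEF grew in DMEM with serum, and the induced, iPS and ES cells in N2B27 medium with serum replacement, 2i and LIF, so induction and medium changed together. The +/+ cells were 1 clone with a deltaPE-Oct4-GFP reporter, whereas the flox/- and -/- cells carried the complete Oct4-GFP reporter, and genotype and reporter cannot be told apart. Each combination of genotype, stage and antibody was 1 library. A difference between lists therefore has no replicate check, and each 95% interval below covers counting error over sites only.

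The 43 peak lists held 928298 peaks, from 274 to 63888 each, and their read depth is unknown. The lists that matter most here were uneven. H3K27me3 peaks covered 62.8 Mb in +/+ MEF and 68.3 Mb in flox/- MEF, but 8.35 Mb in +/+ iPS and 10.7 Mb in flox/- iPS cells, and the day 4 lists held 570 (+/+) and 567 (flox/-) peaks. The flox/- H3K4me3 lists had broader peaks than the +/+ lists, at medians of 1970.5 bp and 1088 bp in MEF and of 1568 bp and 867 bp on day 4. H3K27ac lists went from 28173 to 39463 peaks between days 4 and 8 in +/+ and from 39499 to 21237 in flox/-. The part of these list differences in the results below was not tested except where equal numbers of peaks or a fixed width are named. A call in such a list also does not tell a mark on few cells from a weak mark on all of them. The cell type labels could not be checked against marker genes, because the lists carry mm9 positions without gene names.

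The 611 sites were spread over the genome. They formed 574 clusters when sites within 5000 bp were joined, with 53 sites on chromosome 1, 46 on chromosome 4 and 4 on the X chromosome. The 4 X-linked sites were 0.758% of the H3K4me3 peaks on that chromosome. In +/+ MEF the sites were narrow and had low H3K4me3 scores. Their median width was 657 bp (284 to 3814), against 700 bp for sites that kept H3K27me3 and 1139 bp for the 15573 peaks that were not bivalent. Their median H3K4me3 score was 91.6 (50.2 to 912), against 91.8 at sites that kept H3K27me3 and 359 at peaks that were not bivalent. The authors deposited this score with each peak. What it measures was not checked, and it was not adjusted for peak width. The H3K27me3 score was lower than at sites that kept the mark, with a median of 302 against 484, and H3K27me3 peaks covered a median of 88.0% of each site against 100%.

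Many of the sites already carried H3K27ac in fibroblasts. An H3K27ac peak overlapped 353 sites (57.8%, 53.8 to 61.6) in +/+ MEF and 333 (54.5%) in flox/- MEF, against 93.1% and 92.4% of all +/+ MEF H3K4me3 peaks. Sites that kept H3K27me3 gave 59.8% and 57.7%, close to the 611 sites. Of the 353, 346 (98.0%) had H3K27ac and H3K27me3 peaks on the same bases, over a median of 460 bp. H3K27me3 peaks covered most of a typical site, and the +/+ MEF H3K27ac peaks were wide, with a median of 2170 bp. Peaks that both touched a site were therefore likely to share bases, and no comparison share was computed. Since both marks sit on the same lysine, one histone tail cannot hold both, and the lists do not show whether they lie on different tails, alleles or cells. H3K27ac was called in both MEF lists at 284 sites (46.5%; 91.1% of all peaks) and in neither at 209 (34.2%; 5.60%).

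The border of the rule cut through a continuous range. The gap from a site to the nearest iPS H3K27me3 peak had a median of 1561 bp and reached 2433741 bp. It was at most 500 bp at 192 sites (31.4%), at most 2000 bp at 319 (52.2%) and at most 50000 bp at 454 (74.3%). Just inside the rule, chr1:157589353-157589784 and chr17:69425060-69425808 (mm9) abutted an iPS H3K27me3 peak with no base shared, and chr15:32175888-32176705 lay 1 bp away. Just outside it, chr11:118952127-118952594 overlapped one by 1 bp, chr7:64846594-64847210 by 2 bp and chr10:28866610-28867286 by 3 bp. Among sites that kept H3K27me3 the median overlap was 412 bp, and 64 overlapped by under 100 bp.

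The iPS state differed with this distance. The 319 sites within 2000 bp of remaining H3K27me3 and the 292 farther sites were compared. H3K4me3 with H3K27ac in both iPS lists was found at 24.8% of the near and 62.7% of the far sites, a difference of -37.9 points (-44.8 to -30.3). Over all 17023 peaks the share was 62.8%, near that of the far sites. H3K4me3 alone in both was found at 40.1% and 14.7%, beside 14.6% of all peaks. The distance was taken from the iPS H3K27me3 lists that chose the sites, and the same split was not made among all peaks. At the 157 sites with no iPS H3K27me3 within 50000 bp, H3K4me3 with H3K27ac in both lists reached 69.4%.

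**Figure D1:**
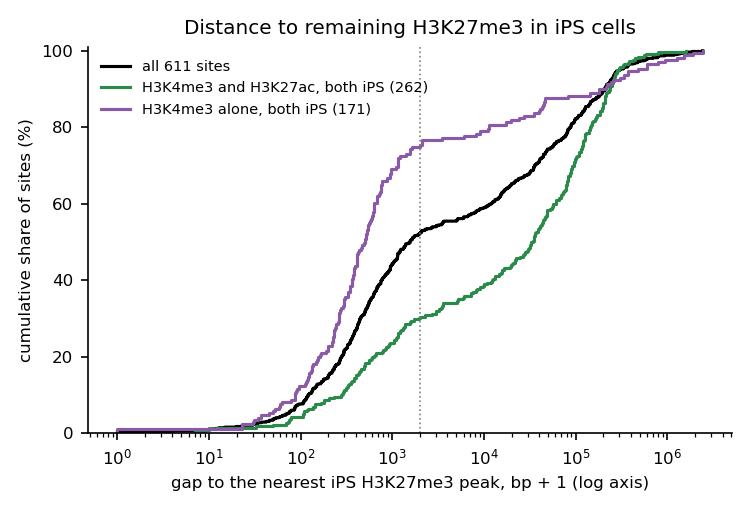
Cumulative share of sites (percent) by the gap to the nearest H3K27me3 peak of either iPS list, in bp plus 1 on a log axis, for all 611 sites and for the sites with H3K4me3 and H3K27ac (262) or H3K4me3 alone (171) in both iPS lists; the dotted line marks 2000 bp. The median gap was 33565 bp for the first of these groups and 503 bp for the second.

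Presence of the bivalent state in flox/- MEF was partial. H3K4me3 was called there at 602 sites (98.5%; 98.8% of all +/+ MEF H3K4me3 peaks) and H3K27me3 at 382 (62.5%; 6.62% of all). Both marks were called at 378 sites, or 61.9% (58.0 to 65.6; 6.54% of all), H3K4me3 alone at 224 (36.7%; 92.3% of all), H3K27me3 alone at 4 and neither at 5. Sites that kept H3K27me3 were bivalent in flox/- MEF more often, at 72.6%. Applying the same rule to the flox/- MEF lists gave 1485 sites, of which 20.5% (18.6 to 22.7) were bivalent in +/+ MEF, so the share that the other genotype held depended on whose list defined the sites. With every peak set to 250 bp either side of its midpoint, the rule left 164 sites and the bivalent share was 15.2%.

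H3K27me3 in flox/- MEF was called less often where fibroblasts also held H3K27ac. It was found at 46.1% of the 284 sites with H3K27ac in both MEF lists and at 79.4% of the 209 with H3K27ac in neither, a difference of -33.3 points (-40.8 to -25.0). The same split was not made among all peaks or among sites that kept H3K27me3, so it has no background. The later state differed little between sites that were bivalent in flox/- MEF and sites with H3K4me3 alone there. H3K4me3 and H3K27ac in both iPS lists were found at 42.9% of the 378 and 44.6% of the 224. Unsplit, the shares were 62.8% of all peaks and 10.3% of sites that kept H3K27me3.

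In iPS cells nearly all the sites held H3K4me3, and they divided by acetylation. H3K4me3 was called at 590 sites (96.6%) in +/+ and 583 (95.4%) in flox/- iPS cells, against 93.9% and 94.4% of all +/+ MEF H3K4me3 peaks. H3K27ac was called at 385 sites (63.0%, 59.1 to 66.7) in +/+ and 290 (47.5%, 43.5 to 51.4) in flox/-, against 76.8% and 66.2% of all peaks. Sites that kept H3K27me3 had H3K27ac at 28.1% and 16.4%. Not all of them held H3K27me3 in the genotype read: 82.4% did in +/+ and 74.3% in flox/- iPS cells. The difference between the 611 sites and the sites that kept H3K27me3 was 34.9 points (29.9 to 39.6) in +/+. In flox/- iPS cells it was 31.0 points (26.3 to 35.6).

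In +/+ iPS cells 382 sites (62.5%; 75.7% of all peaks) held H3K4me3 with H3K27ac, 208 (34.0%; 18.2%) H3K4me3 alone, 3 (0.491%; 1.10%) H3K27ac alone and 18 (2.95%; 5.04%) neither. In flox/- iPS cells 290 (47.5%; 65.9%) held both marks, 293 (48.0%; 28.5%) H3K4me3 alone and 28 (4.58%; 5.32%) neither. Joined over both genotypes, 262 sites (42.9%, 39.0 to 46.8) held H3K4me3 and H3K27ac in both iPS lists, against 10.3% of sites that kept H3K27me3 and 62.8% of all peaks. A further 171 sites (28.0%, 24.6 to 31.7) held H3K4me3 alone in both, against 60.2% and 14.6%. Neither mark was called in either list at 15 sites (2.46%, 1.49 to 4.01), against 2.03% and 3.97%, so that loss of both marks was near the background. The genotypes gave different states at 163 sites (26.7%; 18.5% of all peaks), about as often as among sites that kept H3K27me3 (27.5%; difference -0.855 points, -5.44 to 3.81). Of these, 120 had H3K27ac beside H3K4me3 in +/+ and H3K4me3 alone in flox/- iPS cells (19.6%; 12.7% of all peaks; 17.9% of sites that kept H3K27me3), and 27 the opposite (4.42%; 2.80%; 6.08%). The +/+ iPS H3K27ac list was longer, with 36285 against 28333 peaks, and covered 122 Mb against 64.2 Mb. With equal numbers of top peaks in the lists of both genotypes, the share of the 611 sites active in both was 39.8%. The 120 and 27 sites were not recounted with such lists, so the part of list length in that imbalance was not tested.

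**Figure D2:**
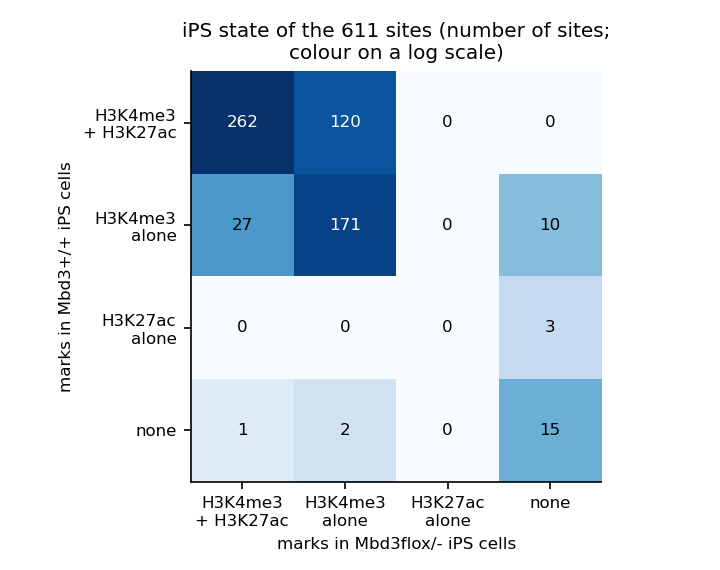
Number of the 611 sites in each combination of marks in Mbd3+/+ iPS cells (rows) and Mbd3flox/- iPS cells (columns); the colour follows the number on a log scale. The diagonal holds 262 sites with H3K4me3 and H3K27ac, 171 with H3K4me3 alone and 15 with neither mark. Of the sites with H3K4me3 in both genotypes, 120 were acetylated in +/+ alone and 27 in flox/- alone, in lists of unequal length.

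The share with both marks moved with the definition of the sites. It was 26.6% when all lists were held to scores of at least 100 (327 sites), 23.2% for the 1485 sites defined by the flox/- MEF lists and 19.1% for the same 611 sites against peaks of fixed width. Among the sites defined by the flox/- lists, 40.9% had neither mark in either iPS list.

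On day 4 after induction the H3K27me3 lists were nearly empty at the sites, with 6 of 611 (0.982%; 0.294% of all peaks) in +/+ and 1 (0.164%; 0.311%) in flox/- cells. At sites that kept H3K27me3 in iPS cells the day 4 shares were also low, 4.77% and 4.05%, and with 570 and 567 peaks in the whole lists no time of loss can be read from them. The +/+ day 8 list, of 939 peaks, marked 2 sites (0.327%; 0.258% of all peaks). A flox/- day 8 H3K27me3 list was not used here.

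H3K4me3 stayed called at more of the sites in flox/- than in +/+ cells during reprogramming. On day 4 it was called at 412 sites (67.4%, 63.6 to 71.0) in +/+ and 579 (94.8%, 92.7 to 96.3) in flox/-, against 84.8% and 94.0% of all peaks. The difference was 27.3 points (23.8 to 31.0), with 169 sites called in flox/- alone and 2 in +/+ alone, and it was 9.25 points over all peaks. At sites that kept H3K27me3 the day 4 difference was larger, 34.7 points (31.4 to 38.0). On day 8 the shares were 62.4% (381 sites) and 80.4% (491 sites), against 73.6% and 82.5% of all peaks, a difference with an interval of 14.2 to 21.8 points, beside 8.88 points over all peaks and 26.2 points (22.3 to 30.0) at sites that kept H3K27me3. H3K4me3 was called at every stage at 320 sites (52.4%; 70.4% of all peaks) in +/+ and 486 (79.5%; 82.0%) in flox/-, the latter near the background. It was missing on both days and present again in iPS cells at 120 sites in +/+ (19.6%; 7.31% of all peaks) and 10 in flox/- (1.64%; 1.29%). At the same 611 sites, with the peaks of the other lists set to a fixed width, the difference was 17.2 points (13.1 to 21.2) on day 4 and 12.4 (8.34 to 16.5) on day 8. Lists cut to equal length gave 26.8 and 12.8 points, and with 50% of the site covered, at 431 sites, 38.1 points on day 4.

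H3K27ac was called at the fewest sites on day 4 in +/+ cells and on day 8 in flox/- cells. On day 4 it was called at 184 sites (30.1%, 26.6 to 33.9) in +/+ and 305 (49.9%, 46.0 to 53.9) in flox/-, against 82.5% and 82.3% of all peaks. The difference was 19.8 points (15.8 to 23.7), with 149 sites called in flox/- alone, 28 in +/+ alone, 156 in both and 278 in neither. Over all peaks the difference was -0.123 points, and at sites that kept H3K27me3 it was 8.70. At the same 611 sites, with equal numbers of top peaks in the lists compared, it was 9.98 points (6.15 to 13.8), and for the sites defined by the flox/- MEF lists 11.8 points.

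On day 8 the order was the other way round. H3K27ac was called at 297 sites (48.6%, 44.7 to 52.6) in +/+ and 193 (31.6%, 28.0 to 35.4) in flox/-, against 85.9% and 63.1% of all peaks. The difference of -17.0 points (-20.8 to -13.2), with 131 sites called in +/+ alone and 27 in flox/- alone, stood beside -22.8 points over all peaks and -26.2 at sites that kept H3K27me3. At the same 611 sites, with equal numbers of top peaks in the lists compared, it was 2.95 points (-0.803 to 6.69). For the sites defined by the flox/- MEF lists it was -3.30 points (-5.19 to -1.41).

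**Figure D3:**
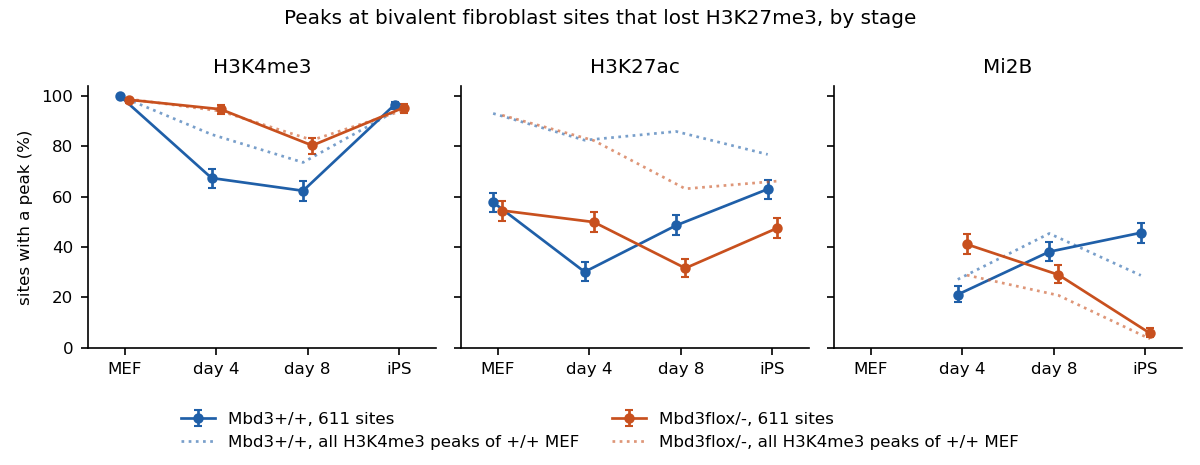
Share of the 611 sites (solid lines, points with 95% Wilson bars) and of all 17023 Mbd3+/+ MEF H3K4me3 peaks (dotted) that overlap a peak of each list (percent), by stage and genotype, for H3K4me3, H3K27ac and Mi2B; the Mi2B panel has no MEF list. The +/+ MEF H3K4me3 share is 100% by the choice of peaks, for the sites and for all peaks. H3K4me3 is at 62.4% in +/+ cells on day 8. The H3K27ac lines of the genotypes cross between day 4 and day 8 in the full lists. With lists of equal length the day 8 H3K27ac difference (flox/- minus +/+) was 2.95 points (-0.803 to 6.69).

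Site by site, H3K27ac was called in all 8 lists of MEF, day 4, day 8 and iPS cells at 70 sites and in none at 80. The remaining sites lay between, with 52 to 74 sites for each number of lists from 1 to 7. This count over 8 lists was not made for all peaks, so it has no background share. In +/+ cells 132 sites were acetylated at all 4 stages (21.6%; 70.4% of all peaks) and 109 at none (17.8%; 4.64%). Between MEF and day 4, +/+ cells lost H3K27ac at 191 sites and gained it at 22, beside 1910 and 100 of all 17023 peaks. Between days 4 and 8 they gained it at 123 and lost it at 10 (792 and 202 of all peaks). In flox/- cells 124 sites lost and 96 gained it by day 4 (1980 and 271 of all peaks), and then 151 lost and 39 gained it by day 8 (3523 and 257).

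**Figure D4:**
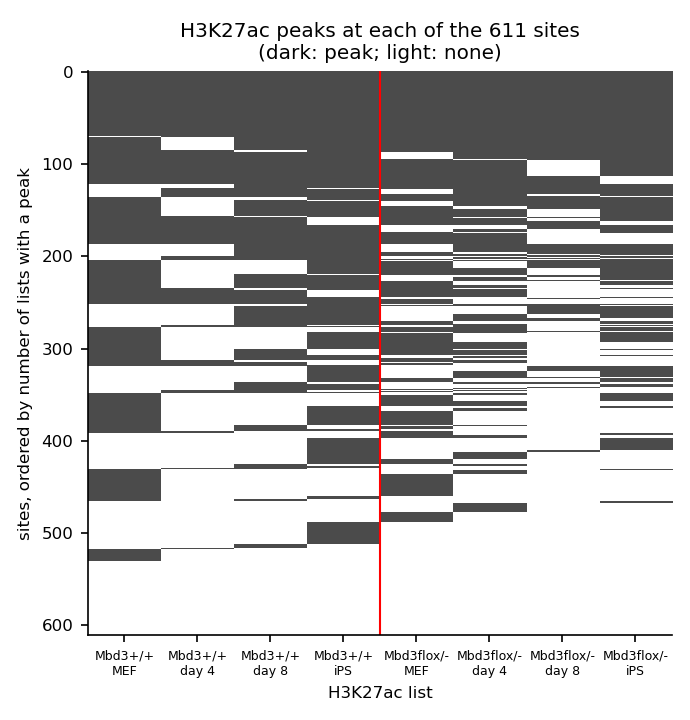
H3K27ac peaks at each of the 611 sites (rows, ordered by the number of lists with a peak) in the 4 stages of Mbd3+/+ cells (left of the red line) and Mbd3flox/- cells (right); dark cells are peaks. At the top are the 70 sites with a peak in all 8 lists and at the bottom the 80 with none. The same count was not made for all peaks.

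Acetylation on the way differed with the state reached. The groups compared here were chosen by H3K4me3 and H3K27ac in the iPS lists. The same split was not made among all peaks, so these shares have no background. Among the 262 sites with H3K4me3 and H3K27ac in both iPS lists, H3K27ac was called on day 4 at 46.6% in +/+ and 69.5% in flox/-, and on day 8 at 74.8% and 61.1%. Among the 171 sites with H3K4me3 alone in both, the shares were 14.04% and 29.8% on day 4 and 23.4% and 4.68% on day 8. The groups already differed in fibroblasts, with H3K27ac in +/+ MEF at 70.2% and 41.5%, and in width, with medians of 782.5 bp and 541 bp. They did not differ much in flox/- MEF H3K27me3, at 61.8% and 62.6%. The day 8 flox/- H3K4me3 list marked 91.6% and 74.3% of them.

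Of the 262, 59 had no H3K27ac in either MEF list and so gained it on the way. These sites had H3K27ac on day 4 at 13.6% in +/+ and 49.2% in flox/-, a difference of 35.6 points (21.3 to 48.1). On day 8 the shares were 55.9% and 50.8%, and the difference of -5.08 points had an interval of -18.5 to 8.69. Of these 59 sites, 83.1% had H3K27me3 in flox/- MEF. The same selection was not made among all peaks or among sites that kept H3K27me3, so these shares have no background. The day 4 H3K27ac lists held 28173 peaks in +/+ and 39499 in flox/-, and lists of equal length were not tried for the 59 sites.

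**Figure D5:**
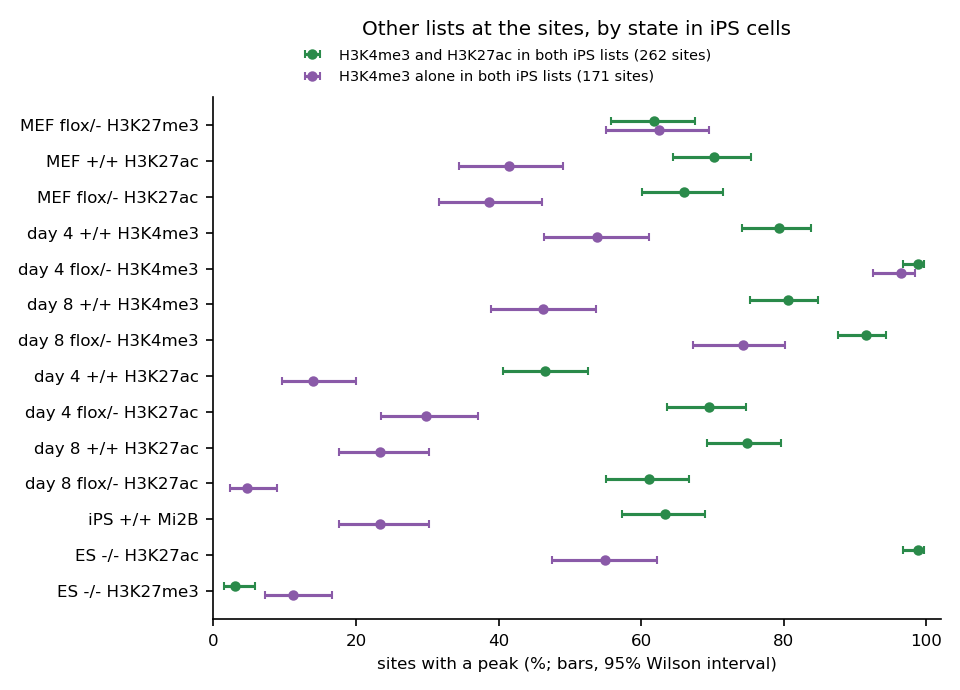
Share of sites (percent, with 95% Wilson intervals) that overlap a peak of each list named on the left, for the 262 sites with H3K4me3 and H3K27ac in both iPS lists and the 171 with H3K4me3 alone in both. The H3K27ac shares of the groups are apart in every list shown. They run from 66.0% against 38.6% in flox/- MEF to 61.1% against 4.68% in flox/- cells on day 8. The shares of flox/- MEF H3K27me3 overlap at 61.8% and 62.6%. The same split was not made among all peaks.

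Mbd3-/- ES cells were not reprogrammed, and the rule did not use them. Their H3K4me3 and H3K27me3 shares at the sites were near those of all peaks, and their H3K27ac share was lower. H3K4me3 was called at 588 sites (96.2%; 94.5% of all peaks) and H3K27ac at 484 (79.2%; 85.9%). H3K27me3 was called at 40 sites (6.55%, 4.84 to 8.79; 6.98% of all peaks), against 51.4% of the sites that had kept it in iPS cells, a difference of -44.8 points (-48.6 to -40.8). Both H3K4me3 and H3K27ac without H3K27me3 were found in ES cells at 75.6% of the sites (81.3% of all peaks), H3K4me3 alone at 14.2% (6.61%) and H3K4me3 with H3K27me3 at 6.38% (6.57%), and no H3K4me3 at 3.76% (5.49%). H3K27me3 was called in ES cells at 10.3% of the sites near remaining iPS H3K27me3 and 2.40% of those beyond 2000 bp. Of the 262 sites with H3K4me3 and H3K27ac in both iPS lists, 98.9% had H3K27ac in ES cells. Of the 171 sites with H3K4me3 alone in both iPS lists, 55.0% had H3K27ac in ES cells and 37.4% held H3K4me3 alone there. This split by iPS state was not made among all peaks.

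The NuRD subunit Mi2B was called at more of the sites at each later stage in +/+ cells. The shares were 21.1% on day 4 (129 sites), 38.1% on day 8 (233) and 45.7% at the iPS stage (279), against 27.1%, 45.4% and 28.7% of all peaks, in lists of 13930, 23280 and 26992 peaks. In +/+ iPS cells it was called at 23.4% of the sites that kept H3K27me3. It marked 63.4% of the sites with H3K27ac in both iPS lists and 23.4% of those with H3K4me3 alone, a split not made among all peaks. In flox/- cells the shares went from 41.1% on day 4 to 29.0% on day 8 and 5.73% at the iPS stage (28.8%, 20.8% and 3.49% of all peaks). The flox/- iPS Mi2B list held 3462 peaks against 26992 in +/+. In -/- ES cells Mi2B was called at 57.4% of the sites (48.0% of all peaks).

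Mbd3 itself, mapped in +/+ cells, was called at 19 MEF sites (3.11%), 59 day 4 sites (9.66%) and 70 iPS sites (11.5%), against 1.13%, 3.30% and 5.01% of all peaks. Sites that kept H3K27me3 had Mbd3 at 5.13%, 13.3% and 6.20%, so the 611 sites stood below them on day 4 (-3.69 points, -6.93 to -0.328) and above them in iPS cells (5.26 points, 2.32 to 8.38). In MEF the difference of -2.02 points had an interval that includes 0. In iPS cells Mbd3 was called at 20.6% of the sites with H3K27ac in both lists and 4.68% of those with H3K4me3 alone, a split not made among all peaks. Oct4, one of the induced factors, was called at 3 sites in each MEF list (0.491%; 0.182% of all peaks in +/+ and 0.194% in flox/-). On day 4 it was called at 42 sites (6.87%; 11.6% of all peaks) in +/+ and 135 (22.1%; 18.5%) in flox/-, with 16785 and 33755 peaks in those lists. It marked 71 sites (11.6%; 9.56%) in flox/- cells on day 8, and in iPS cells 40 (6.55%; 4.10%) in +/+ and 9 (1.47%; 0.764%) in flox/-.

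Individual sites show these courses in the authors' peak scores, which rank peaks within one list and are not compared between lists here. The value 3100 recurs in many lists, and some peaks score higher. The site chr1:138845116-138845549 had one of the 5 highest MEF H3K27me3 scores among the 611 sites, 2856 in +/+ (flox/- 1853), beside an H3K4me3 score of 58.5 close to the lowest that the list holds. No mark was called there in +/+ cells on day 4, and in flox/- cells only H3K4me3 (343). On day 8 H3K4me3 (134) and H3K27ac (111) were called in +/+ and H3K27ac (1156) and H3K4me3 (196) in flox/-. In iPS cells H3K27ac scored 3100 in +/+ and 2954 in flox/-, and the nearest iPS H3K27me3 peak was 151340 bp away.

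The site chr8:14089338-14090605 had the highest MEF H3K27me3 score (3100 in +/+, 1170 in flox/-) and held H3K27ac beside it (663 and 599). It kept both H3K4me3 and H3K27ac at every stage in both genotypes. The site chr5:129106087-129106773 gained H3K27ac without any in MEF. In +/+ cells neither H3K4me3 nor H3K27ac was called on either day, and in iPS cells it held H3K27ac (3100), Mi2B (454), Oct4 (303) and Mbd3 (154). In flox/- cells it held H3K27ac on day 4 (61.0) and day 8 (324) with Oct4 on both days (97.3 and 124). The site chr10:60880859-60881314, also free of H3K27ac in MEF, was acetylated on day 4 in both genotypes (760 and 1140).

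Few of the sites with neither mark in iPS cells still held one after induction. The site chr3:86348306-86349748 had H3K27ac scores of 3100 in +/+ and 2948 in flox/- MEF and an H3K27me3 score of 1010 in +/+ MEF. It had no called mark in +/+ cells on day 4, H3K4me3 (1581) and H3K27ac (828) in flox/- cells, and none in either genotype on day 8. The sites chr4:136447488-136448789 and chr4:136440514-136441112 lie beside each other under one +/+ MEF H3K27ac peak (2658) and lost H3K4me3 and H3K27ac by day 4 in both genotypes, so they are not independent cases. Over the 15 such sites, H3K4me3 was called on day 4 at 6.67% in +/+ and 20.0% in flox/-, and on day 8 at none of the 15 in either list, which allows a share of up to 20.0%.

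On day 8 the sites acetylated in one genotype alone took different forms. The site chr11:116196681-116197210 scored 3100 for H3K27ac in +/+ cells on day 8 and had no H3K27ac peak in flox/- cells on day 4, day 8 or in iPS cells, while H3K4me3 was called there in flox/- cells at every stage. At chr2:115896893-115897446 H3K27ac scored 3100 in +/+ MEF, on day 4 and on day 8, and no mark was left in +/+ iPS cells. In flox/- cells H3K27ac was called there in MEF (3100) and on day 4 (58.9). H3K4me3 alone was called in flox/- iPS cells (3100), and the nearest iPS H3K27me3 peak was 935 bp away. At chr5:120135990-120136495 the day 8 peak was in flox/- alone (1561), and both iPS lists held H3K27ac (1132 in +/+, 1282 in flox/-). Among sites with H3K27me3 in -/- ES cells, chr6:29477909-29478426 had the highest ES score (671). It held H3K4me3 alone in both iPS lists, and lay 22 bp from the nearest iPS H3K27me3 peak.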

How the data were processed

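The data were ChIP-seq peak lists of mouse cells, 43 lists for 6 antibodies in 3 genotypes, with 1 library per group. Named in the submitters' processing notes, without settings, are the mm9 build, the peak caller MACS (1.4.1), the aligner Bowtie (0.12.5) and CASAVA (1.8.2). The authors deposited a score with each peak, none below 50. Scores were not compared between lists, except that 1 alternative held all lists to the same minimum of 100. Replicate structure and depth cannot be read from the lists.

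Groups follow the sample titles. For 4 +/+ lists the stage label gives another day: H3K27me3 (5), Mbd3 (6) and Mi2B (7) titled day 4, and Mi2B (11) titled day 8. The +/+ day 8 H3K27me3 record repeats another record of the same sample.

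Lists were compared by overlap of at least 1 bp with Python 3, numpy and pandas, and bedtools gave the same 611 sites. Shares have Wilson intervals. Differences have Newcombe intervals, paired where the same sites were read in both lists, at a confidence level of 95%. The overlap code and intervals were tested on simulated data. Positions are 1-based mm9. Named sites are among the 5 highest by score within the groups described, or nearest to the border of the rule. The sites, lists and rules were chosen with earlier results of these data known. Gene lists, markers and sequences were not analysed here, since no mm9 annotation or genome was used.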

Additional observations from a re-analysis of the deposited data

Results flagged for a closer look

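Between days 4 and 8 the genotypes moved in opposite directions at the 611 sites for H3K27ac: the share with a peak changed by 18.5 points (15.0 to 21.9) in +/+ and by -18.3 points (-22.5 to -14.1) in flox/- cells. Over all H3K4me3 peaks of +/+ MEF the same steps were 3.47 and -19.2 points, and the lists went from 28173 to 39463 and from 39499 to 21237 peaks. Mi2B moved likewise between those days, by 17.0 points in +/+ and -12.1 in flox/-, with 18.2 and -8.02 over all peaks. From day 8 to iPS cells Mi2B changed by 7.53 points in +/+ and -23.2 in flox/-, with -16.6 and -17.3 over all peaks. With 1 library per group the difference between genotypes was not tested. At the same sites, with equal numbers of top peaks in the lists of both genotypes, the H3K27ac difference (flox/- minus +/+) was 9.98 points on day 4 in place of 19.8 and 2.95 (-0.803 to 6.69) on day 8 in place of -17.0. For Mi2B the part of list length was not tested. The stage labels of both +/+ Mi2B lists give a later day than their titles.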

How the results depend on the processing

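Of 112 values recomputed under 13 alternatives, 62 were labelled the same, 48 moved and 2 reversed. Shares and differences were the same within the 95% interval of the main value, and the number of sites within a set fold range. Leaving out regions with top 1% peaks of 5 or more antibodies removed 0 of the 611 sites, so its values could not change. Autosomes alone kept 607 sites. The count of 62 includes these values and is no measure of stability. The cause of each move was not tested, beyond what the alternative itself removes. With lists of both genotypes cut to the same length by score, which also redefines the sites (683), the day 8 H3K27ac difference (flox/- minus +/+) reversed to 3.22 points; the day 4 one was 10.2, the day 8 H3K4me3 one 13.8, and 37.2% of sites were active in both iPS lists. With peaks of fixed width, 164 sites remained, of which 15.2% each were bivalent in flox/- MEF, active in both iPS lists and unmarked in both. The H3K4me3 differences were then 16.5 (day 4) and 7.93 (day 8), and ES H3K27me3 stood at 9.76%. With 50% of the site covered, flox/- MEF bivalency was 53.4%, ES H3K27me3 1.39%, the day 4 H3K4me3 difference 38.1 and the day 8 H3K27ac difference -11.4. With scores of at least 100 (327 sites), bivalency was 57.2%, active 26.6%, unmarked 0.917%, and the H3K4me3 differences 34.6 and 22.3. With no iPS H3K27me3 within 2000 bp (292 sites), bivalency was 57.9%, active 62.7%, ES H3K27me3 2.40%, and the day 8 differences 13.7 (H3K4me3) and -12.7 (H3K27ac). Sites from the flox/- MEF lists (1485) gave bivalency in +/+ of 20.5%, active 23.2%, unmarked 40.9%, 11.8 (day 4 H3K27ac), 10.1 (day 8 H3K4me3) and -3.30 (day 8 H3K27ac). Of 4 alternatives chosen after seeing the data, one kept the 611 sites and equalised the compared lists: the day 8 H3K27ac difference reversed to 2.95, the day 4 one was 9.98 and the day 8 H3K4me3 one 12.8. Another kept the sites and set the compared peaks to a fixed width: bivalency was 11.6%, active 19.1%, unmarked 11.1%, ES H3K27me3 8.84%, and the H3K4me3 differences 17.2 and 12.4. A limit of 50000 bp (157 sites) gave active 69.4%, ES H3K27me3 1.27% and day 8 differences of 8.28 (H3K4me3) and -12.1 (H3K27ac), and absence from the +/+ iPS list alone gave active 36.8% and ES H3K27me3 12.8%. The day 4 differences and the day 8 H3K4me3 difference stayed above 0 in all alternatives run. No paired analysis was possible because each group had 1 library. Depth is unknown, so a missing peak means not called.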
